A study of Mus musculus with 9 samples.

Results

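The DNA replication and S phase genes were followed as a set of 51 members, taken by gene symbol from the 20368 rows of the deposited table. Their products license and open replication origins, copy the DNA, supply its nucleotides and rebuild chromatin behind the fork. They were measured in erythroblasts, the nucleated precursors of red cells, that had been sorted from spleen for CD71, the transferrin receptor, together with Ter119, an antigen of the red cell lineage. The mice were 4 weeks old, of the C57BL/6 strain, and differed in Dhh, which encodes Desert hedgehog, a secreted signal, by the number of null alleles they carried. KO libraries came from Dhh-/- mice (2 null alleles), HET libraries from Dhh+/- mice (1 null allele) and WT libraries from wildtype mice (0 null alleles), with 3 libraries for each genotype. No other allele or treatment is named in the labels, and they do not say how the null allele was made or whether the libraries are from separate mice; the p-values therefore measure only the spread between these libraries, which may be technical.

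All values are FPKM, that is reads per gene scaled for gene length and for the library. Whole reads could be recovered from them and came to between 7.05 M and 14.2 M per library, with M for mega. The relative library factors equalled median-of-ratios factors to within 9.1e-12, so the values were not scaled by total reads. Such a factor is the median, over genes above 0 in every library, of reads relative to the gene's geometric mean. Dhh itself was listed at 0 in 8 of the 9 libraries, WT libraries included, and at 0.0267 FPKM in HET replicate 1, so its level does not check the genotypes. The 10 erythroid markers were above 0 in every library, with summed levels of 16440 to 23810 FPKM in KO, 14280 to 26760 FPKM in HET and 18130 to 26070 FPKM in WT libraries. WT replicate 3 stood apart from the other 8 libraries in the members and in the B cell, T and NK cell and macrophage markers. The KO minus WT and HET minus WT medians of the members are therefore given with and without it. In bulk RNA from sorted cells, fewer cells in S phase and less RNA per cell cannot be told apart.

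A cell copies its genome once per division. In G1 the origin recognition complex, Cdc6 and Cdt1 load the Mcm2 to Mcm7 ring onto DNA, and at the start of S phase the Cdc7-Dbf4 and cyclin E kinases turn it into an active helicase with Cdc45 and the GINS complex. Polymerase alpha with primase starts each strand, polymerases delta and epsilon extend it on the Pcna clamp, and Fen1 and Lig1 join the pieces of the lagging strand. E2F factors switch many of these genes on together at the G1 to S transition. Erythroblasts divide several times while they mature, and in mice the onset of terminal differentiation is tied to S phase.

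The promoters were searched for the E2F-type word, because E2F factors are known to act on many of these genes. The window ran from 250 bases before to 50 bases after each RefSeq start (GRCm38.p6), and the words were TTTCCCGC, TTTCCCGG, TTTCGCGC, TTTCGCGG, TTTGCCGC, TTTGCCGG, TTTGGCGC and TTTGGCGG on either strand, with overlapping matches counted separately. Of the 51 members, 42 had a promoter in the table, and 19 of these (45.2%) held at least 1 word, against 9.79% of the tested genes with a promoter and 5.14% of all genes with one. At least 2 words were found in 16.0% of the member promoters, in 0.712% of the promoters of tested genes and in 0.289% of all promoters. A CCAAT box, on either strand, lay in the promoters of 25 of the 42 members (59.5%), against 43.7% of tested genes. A match describes letters only and was not tested as a binding site. Promoters of 8 members held at least 2 words, and 5 of these are shown (Mcm6 with 3 words, then the most abundant with 2), with the words in capitals and 5′ to 3′ along the gene. For Mcm6, Mcm5 and Mcm7 the stretch lies before the start, and for E2f2 and Lig1 it is a short stretch just after it. The stretch of Mcm7 holds 1 of its 2 words.
Mcm6 (chr1:128359706-128359855, minus strand): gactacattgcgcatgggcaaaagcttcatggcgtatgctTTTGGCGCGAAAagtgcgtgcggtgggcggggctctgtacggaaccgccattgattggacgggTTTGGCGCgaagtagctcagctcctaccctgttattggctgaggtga
Mcm5 (chr8:75109316-75109407, plus strand): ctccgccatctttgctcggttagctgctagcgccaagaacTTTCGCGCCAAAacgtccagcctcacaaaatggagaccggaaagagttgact
Mcm7 (chr5:138172001-138172088, minus strand): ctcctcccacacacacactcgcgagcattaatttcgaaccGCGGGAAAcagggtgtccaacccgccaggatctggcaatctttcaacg
E2f2 (chr4:136172295-136172323, plus strand): gaaTTTGGCGGcatatagTTTGGCGCtaa
Lig1 (chr7:13278837-13278862, plus strand): ctcCCGCCAAAgtgcGCGCGAAAtct
The run of 12 capitals in Mcm6 and in Mcm5 is a pair of words on opposite strands that overlap by 4 bases. The 19 members with a word had a median level of 66.9 FPKM and the 23 without had 72.7 FPKM.

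All 51 members were expressed in every library, and all 51 passed the filter of at least 1 FPKM in at least 3 libraries that left 9543 genes for testing. None was listed at 0, and the least covered value rested on 136 reads (Rpa3 in HET replicate 2). Every member lay above the median level of the tested genes, 9.4 FPKM, and the median member had a mean of 66.9 FPKM. Means of at least 100 FPKM were reached by 18 members, and 4 members lay under 30 FPKM. Together the 51 genes held 1.31% to 1.65% of the summed FPKM in KO, 1.5% to 1.69% in HET and 1.17% to 2.08% in WT libraries.

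**Figure D1:**
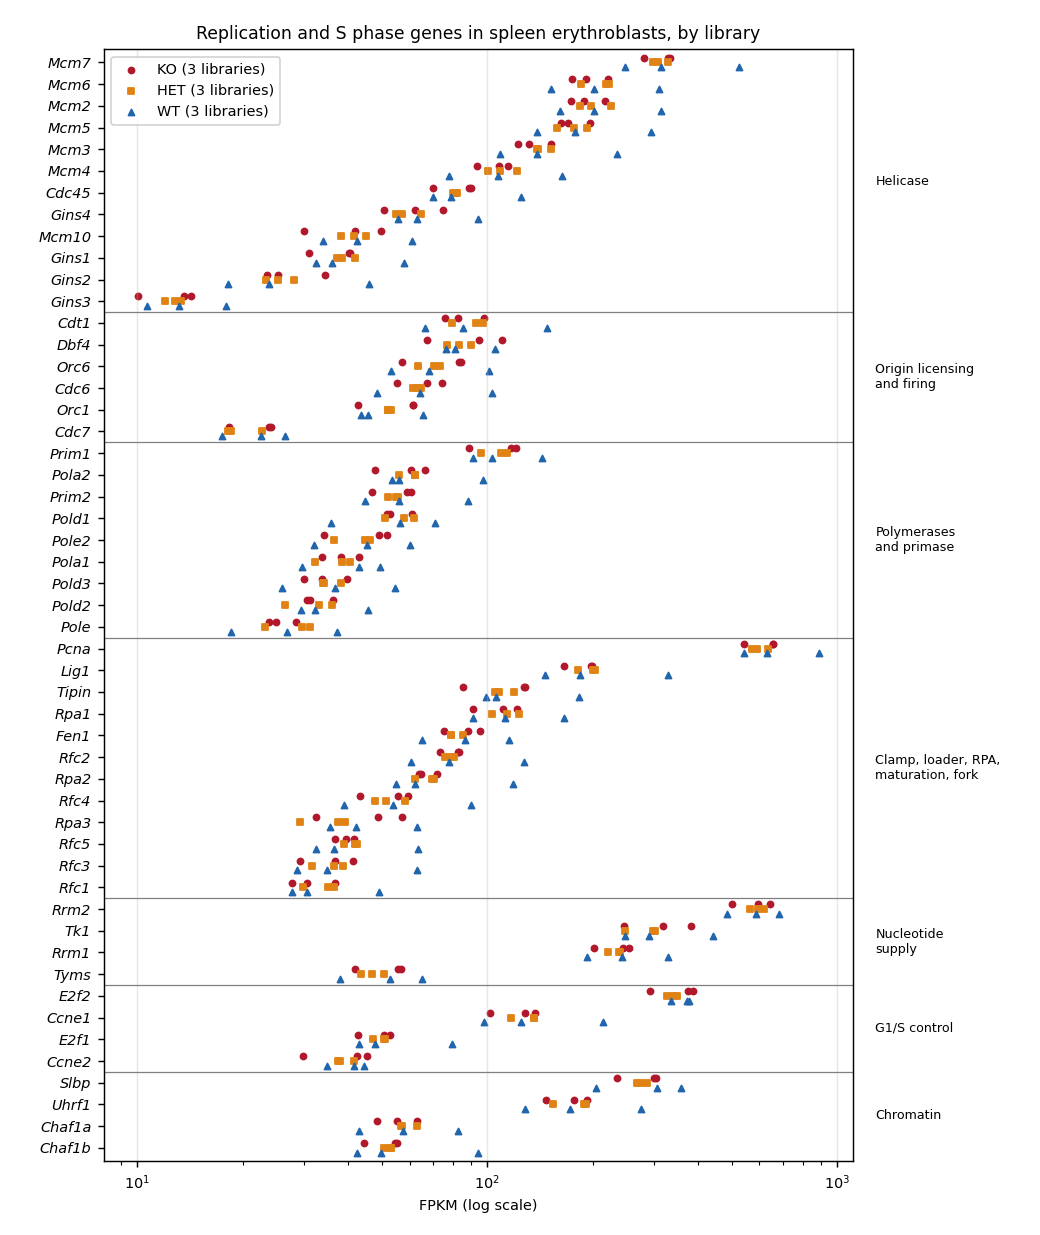
Level of each of the 51 members (rows, grouped by role and ordered by mean) in FPKM on a log scale, with 1 point per library, 3 for each of KO, HET and WT. The genotypes overlap for every member, and the WT points are the most spread, with WT replicate 3 at the right for most genes (Pcna at 886 FPKM there, against 541 FPKM in WT replicate 1).

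The helicase genes were abundant and followed each other closely. Mcm7, a subunit of the ring that unwinds DNA, had 332.5, 281 and 329 FPKM in KO replicates 1 to 3, against 308, 329 and 298 FPKM in HET and 247, 313 and 524.5 FPKM in WT replicates 1 to 3. Mcm6, its ring partner, had 221, 175 and 192 FPKM in KO, 218, 223.5 and 185 FPKM in HET and 152, 201 and 309 FPKM in WT libraries. In both genes WT replicate 3 was the highest and WT replicate 1 the lowest of the 9 libraries, and the KO and HET libraries lay between them. Mcm5 averaged 177 ± 17.9 FPKM in KO, 176 ± 17.3 FPKM in HET and 204 ± 80.4 FPKM in WT libraries, and Mcm3 136 ± 14.9, 143 ± 7.53 and 161 ± 66.1 FPKM in the same order (SD, n = 3 each). Mcm4 was the lowest ring subunit, at 105 ± 10.7 FPKM in KO, 110.4 ± 10.6 FPKM in HET and 116 ± 43.7 FPKM in WT libraries. The helicase activators were lower per length. Cdc45 averaged 83.0 ± 11.1 FPKM in KO, 81.2 ± 1.06 FPKM in HET and 91.2 ± 29.3 FPKM in WT libraries, while Mcm10, which helps activate the helicase, averaged 40.5 ± 10.03 FPKM in KO, 41.7 ± 3.41 FPKM in HET and 45.73 ± 13.8 FPKM in WT libraries. The 4 GINS subunits act in equal numbers in the complex, but their transcripts ranged from a mean over all libraries of 13.1 FPKM for Gins3, the lowest of all members, to 64.2 FPKM for Gins4. Gins4 had 75.0, 50.6 and 62.3 FPKM in KO, 64.8, 57.2 and 54.8 FPKM in HET and 55.6, 63.2 and 93.9 FPKM in WT libraries, highest in WT replicate 3 and lowest in KO replicate 2. Gins1 averaged 37.3 ± 5.42 FPKM in KO, 39.2 ± 2.51 FPKM in HET and 42.1 ± 13.7 FPKM in WT libraries. Gins2 shares 67.3% of its annotated exon bases with Gse1 on the opposite strand, and since strand is not given in the sources used here its reads may be mixed.

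Among the genes that license and fire origins, Cdt1, the Mcm loading factor, had 98.0, 75.8 and 82.4 FPKM in KO, 97.2, 93.1 and 79.5 FPKM in HET and 66.6, 85.5 and 149 FPKM in WT libraries. Dbf4, the activating subunit of Cdc7 kinase, had 95.02, 67.3 and 110.0 FPKM in KO, 83.3, 76.6 and 90.2 FPKM in HET and 76.4, 80.8 and 105 FPKM in WT libraries. Dbf4 was 1 of only 3 members whose highest library was not WT replicate 3. Its partner Cdc7 was far lower, with 24.2, 18.2 and 23.8 FPKM in KO, 22.7, 18.2 and 18.5 FPKM in HET and 17.4, 22.6 and 26.5 FPKM in WT libraries. Cdc6, the second loading factor, averaged 65.7 ± 9.60 FPKM in KO, 63.0 ± 1.70 FPKM in HET and 72.0 ± 28.1 FPKM in WT libraries. Of the origin recognition subunits, Orc1 averaged 55.1 ± 10.8 FPKM in KO, 52.4 ± 0.646 FPKM in HET and 51.6 ± 12.1 FPKM in WT libraries and Orc6 74.8 ± 15.3 FPKM in KO, 69.2 ± 5.17 FPKM in HET and 74.1 ± 24.7 FPKM in WT libraries. Orc1 was the member with the highest KO mean relative to WT on the log scale, and its groups overlapped.

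Of the polymerase genes, Prim1 and Pola2, both of the priming enzyme, were the most abundant. Prim1, the catalytic primase subunit, had 121, 88.8 and 117 FPKM in KO, 114, 95.7 and 109.6 FPKM in HET and 90.9, 103 and 144 FPKM in WT libraries. Pola2, the regulatory subunit of polymerase alpha, had 66.5, 47.9 and 60.5 FPKM in KO, 62.2, 62.1 and 56.0 FPKM in HET and 53.5, 56.1 and 97.1 FPKM in WT libraries. The KO libraries of Pola2 spanned both lower WT libraries, and WT replicate 3 was far above all others. Prim2 averaged 55.5 ± 7.42 FPKM in KO, 54.2 ± 1.98 FPKM in HET and 63.0 ± 22.4 FPKM in WT libraries, and the catalytic Pola1 38.3 ± 4.69 FPKM in KO, 37.0 ± 4.26 FPKM in HET and 40.6 ± 10.1 FPKM in WT libraries. Pold1, the catalytic subunit of polymerase delta, averaged 55.1 ± 5.02 FPKM in KO, 56.9 ± 5.41 FPKM in HET and 54.4 ± 17.6 FPKM in WT libraries. Pole, the catalytic subunit of polymerase epsilon, averaged 25.8 ± 2.44 FPKM in KO, 27.9 ± 4.22 FPKM in HET and 27.5 ± 9.30 FPKM in WT libraries. The accessory subunits Pold2, Pold3 and Pole2 lay between 31.8 and 45.9 FPKM in every genotype mean. For each of these genes the SD within WT exceeded the difference between any pair of genotype means.

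The clamp and the enzymes that finish the lagging strand included the most abundant member. Pcna, the sliding clamp, had 655, 541 and 657 FPKM in KO, 591, 636 and 571.5 FPKM in HET and 541, 629 and 886 FPKM in WT libraries, and its mean lay at the 99.2th percentile of the tested genes. Lig1, the ligase of the lagging strand, had 198, 166 and 199.8 FPKM in KO, 204, 200.3 and 182 FPKM in HET and 146.5, 185 and 329 FPKM in WT libraries. Fen1, the flap nuclease, averaged 86.3 ± 10.2 FPKM in KO, 80.8 ± 3.68 FPKM in HET and 88.9 ± 25.1 FPKM in WT libraries. The clamp loader genes Rfc1 to Rfc5 had genotype means between 31.7 FPKM (Rfc1 in KO) and 88.6 FPKM (Rfc2 in WT). Among the subunits of RPA, which coats single-stranded DNA, Rpa1 averaged 108 ± 15.5 FPKM in KO, 113 ± 9.89 FPKM in HET and 123 ± 38.2 FPKM in WT libraries, and Rpa2 66.8 ± 4.39 FPKM in KO, 67.4 ± 4.40 FPKM in HET and 78.4 ± 34.7 FPKM in WT libraries. The small subunit gene Rpa3 had 57.0, 32.3 and 48.8 FPKM in KO, 37.5, 29.2 and 39.1 FPKM in HET and 35.6, 42.1 and 62.9 FPKM in WT libraries. Rpa3 departed from the other RPA genes in that HET replicate 2 was its lowest library and 2 of the 3 KO libraries lay above all HET libraries. Tipin, a fork protection factor, averaged 114 ± 24.8 FPKM in KO, 111 ± 7.20 FPKM in HET and 129 ± 46.3 FPKM in WT libraries.

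The genes that supply nucleotides included Rrm2, 1 of the steadiest members. Rrm2, the small subunit of ribonucleotide reductase, had 594, 501 and 643 FPKM in KO, 617, 592 and 565 FPKM in HET and 483, 587 and 683 FPKM in WT libraries. Its coefficient of variation over the 9 libraries was 10.8%, against 16.1% for the large subunit Rrm1. Tk1, the thymidine kinase of S phase, had 318, 246.5 and 383 FPKM in KO, 302.5, 248 and 298 FPKM in HET and 248, 290.3 and 443 FPKM in WT libraries. Tk1 was lowest in KO replicate 2 and differed little there from HET replicate 2 and WT replicate 1. Tyms, the thymidylate synthase, averaged 51.5 ± 8.26 FPKM in KO, 47.1 ± 3.69 FPKM in HET and 52.0 ± 13.6 FPKM in WT libraries.

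In the group that controls the G1 to S step, E2f2 was the most abundant gene and the steadiest of all 51. E2f2, an E2F factor needed for orderly erythroblast division in mice, had 387, 292 and 375 FPKM in KO, 339, 348 and 327 FPKM in HET and 373, 335 and 377 FPKM in WT libraries. Its coefficient of variation was 8.69%, and WT replicate 1, low for most members, was not among its lowest libraries. E2f1 had 52.7, 42.7 and 50.6 FPKM in KO, 50.8, 51 and 47.2 FPKM in HET and 43.1, 47.9 and 79.1 FPKM in WT libraries. The 2 cyclin E genes differed in the same way. Ccne1 had 129, 102 and 137 FPKM in KO, 136, 117 and 136 FPKM in HET and 98.0, 125 and 214 FPKM in WT libraries. Ccne2 had 45.2, 29.8 and 42.6 FPKM in KO, 41.6, 38.0 and 37.4 FPKM in HET and 34.9, 41.6 and 44.4 FPKM in WT libraries, so that its highest library was KO replicate 1.

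The chromatin genes covered histone supply and DNA methylation. Slbp, which binds the end of histone mRNAs, had 304, 235 and 299 FPKM in KO, 286, 273 and 267.5 FPKM in HET and 205, 306 and 357.5 FPKM in WT libraries. Uhrf1, which recruits the maintenance DNA methyltransferase, had 192.5, 147 and 177 FPKM in KO, 192, 189 and 154 FPKM in HET and 128.5, 173 and 275 FPKM in WT libraries. In both genes the WT libraries held the highest and the lowest value. The histone chaperone subunits were close to each other, with Chaf1a at 55.5 ± 7.32 FPKM in KO, 59.0 ± 3.67 FPKM in HET and 61.0 ± 19.9 FPKM in WT libraries and Chaf1b at 51.4 ± 6.06 FPKM in KO, 52.3 ± 1.44 FPKM in HET and 62.1 ± 28.1 FPKM in WT libraries. Chaf1a shares 52.5% of its exon bases with Ubxn6 on the opposite strand. The 10 other members that share exon bases with a gene of the table do so for 17.4% or less. Fen1, which is among them, also shares 78.8% with the antisense gene Gm10143, which the table lacks, so its reads may be mixed too.

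The comparison of KO with WT libraries asked whether loss of both Dhh alleles changed these genes. No member did so by the test. Limma, fitted on log2(FPKM + 1) over all 9 libraries with Benjamini-Hochberg adjustment, called 0 of the 51 members and 0 of the 9543 tested genes (0%) at an adjusted p below 0.05. At an unadjusted p below 0.05 there were 0 members and 43 genes in all, and voom, run on recovered reads, also called 0 (38 genes had an unadjusted p below 0.05). The lowest unadjusted p of a member was 0.405 for Pola2, at a log2 difference of -0.20 ± 0.22 (SE, limma adjusted p = 0.9997), and E2f1 (-0.17 ± 0.21) and Mcm2 (-0.18 ± 0.22) came next. Mcm2 had 218, 173.5 and 189 FPKM in KO, 198, 226 and 184 FPKM in HET and 161.5, 202.5 and 314.5 FPKM in WT libraries, so the KO libraries lay inside the WT range. The KO and WT libraries overlapped for all 51 members, while they did not overlap for 2.48% of the tested genes. The 95% intervals of all 51 members lay within a 2-fold change, from -0.77 to 0.68 on the log2 scale at the outermost, with a median distance from estimate to bound of 0.51. For all tested genes, 86.6% of the intervals did so.

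The fitted KO minus WT differences of the members were small and mostly below 0. Their median was -0.10, against 0.01 over all tested genes, and 44 of 51 lay below 0, against 47.3% of all tested genes. That count was 39 after quantile normalization. It was 37 with libraries scaled by total reads, which moved all genes, so that the median was -0.07 for the members and 0.04 for all tested genes. By role, 11 of 12 helicase genes, 8 of 9 polymerase genes and 12 of 12 clamp and maturation genes had differences below 0, against 2 of 6 licensing genes (Orc6, Dbf4, Orc1 and Cdc7 lay above 0). This direction rested on WT replicate 3 and KO replicate 2. Without WT replicate 3 the median was 0.15 and 1 of 51 members lay below 0, and without KO replicate 2 the median was 0.0023 with 24 below 0. Leaving out WT replicate 1 moved it the other way, to a median of -0.29 with 51 of 51 below 0. The fitted KO minus WT difference was above 0 for 9 of 9 B cell (median 0.37) and 10 of 10 macrophage markers (median 0.35). It was below 0 for 9 of 10 erythroid markers (median -0.07). WT replicate 3 was the lowest library for all of these B cell and macrophage genes, and the marker differences were not fitted without it. Cd74, the most abundant B cell marker, had 182, 509 and 384.5 FPKM in KO and 751, 269 and 49.6 FPKM in WT libraries. No marker was called, and the part of the markers in the members' values was not tested.

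Between HET and WT libraries, which ask what loss of a single allele does, again no member passed the test. Limma called 0 of 51 members and 0 of 9543 genes (0%), with 0 members and 113 genes at an unadjusted p below 0.05, and voom called 0, with 91 at an unadjusted p below 0.05. Rpa3 had the lowest unadjusted p of a member, 0.184, with a log2 difference of -0.37 ± 0.26 (SE, limma adjusted p = 0.9999), followed by Gins4 at -0.23 ± 0.21 and Pcna at -0.16 ± 0.18. HET and WT libraries overlapped for all 51 members, and did not for 4.36% of the tested genes. The median difference of the members was -0.09, against -0.0020 over all tested genes, with 47 of 51 below 0, against 50.6% of all. After quantile normalization the direction did not hold, with 25 of 51 below 0 and a median of 0.0029, against -0.0017 over all tested genes. Scaling by total reads left 23 of 51 below 0, but it moved all genes, to a median of 0.0045 for the members and 0.08 for all tested genes, so the members stayed below the rest. Without WT replicate 3 the median was 0.15 and 4 of 51 lay below 0, while without WT replicate 1 it was -0.30 with 51 of 51 below 0. The fitted HET minus WT difference was above 0 for 9 of 9 B cell (median 0.68) and 10 of 10 macrophage markers (median 0.61). It was below 0 for 10 of 10 erythroid (median -0.15) and 7 of 10 neutrophil markers (median -0.55). Here too WT replicate 3 was the lowest library for all of these B cell and macrophage genes, and no marker fit was run without it. No marker was called, and the part of the markers in the members' values was not tested. Both comparisons share the WT libraries.

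Between KO and HET libraries, which differ by 1 null allele, limma called 0 of 51 members and 0 of 9543 genes (0%), with 0 members and 56 genes at an unadjusted p below 0.05, and voom called 0, with 53 at an unadjusted p below 0.05. Rpa3 again had the lowest unadjusted p, 0.209, at a log2 difference of 0.35 ± 0.26 (SE, limma adjusted p = 0.9996), followed by Cdc7 at 0.15 ± 0.18 and Tk1 at 0.14 ± 0.23. KO and HET libraries overlapped for all 51 members, and did not for 4.48% of the tested genes. The median of the members was -0.0015, against 0.0037 over all tested genes, and 26 of 51 lay below 0, against 48.9% of all. That count was 43 after quantile normalization, where the median was -0.08 for the members and -0.0049 for all tested genes. It was 41 when scaled by total reads, which moved the median of all tested genes to -0.05, beside -0.06 for the members. Without KO replicate 2 it was 6, and the median was 0.10. Of the markers, 9 of 9 B cell and 10 of 10 macrophage genes lay below 0 and 9 of 10 neutrophil and 10 of 10 erythroid genes above 0 (0 called), and their part was not tested. The 95% intervals of all 51 members lay within a 2-fold change in this comparison and in that of HET with WT.

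**Figure D2:**
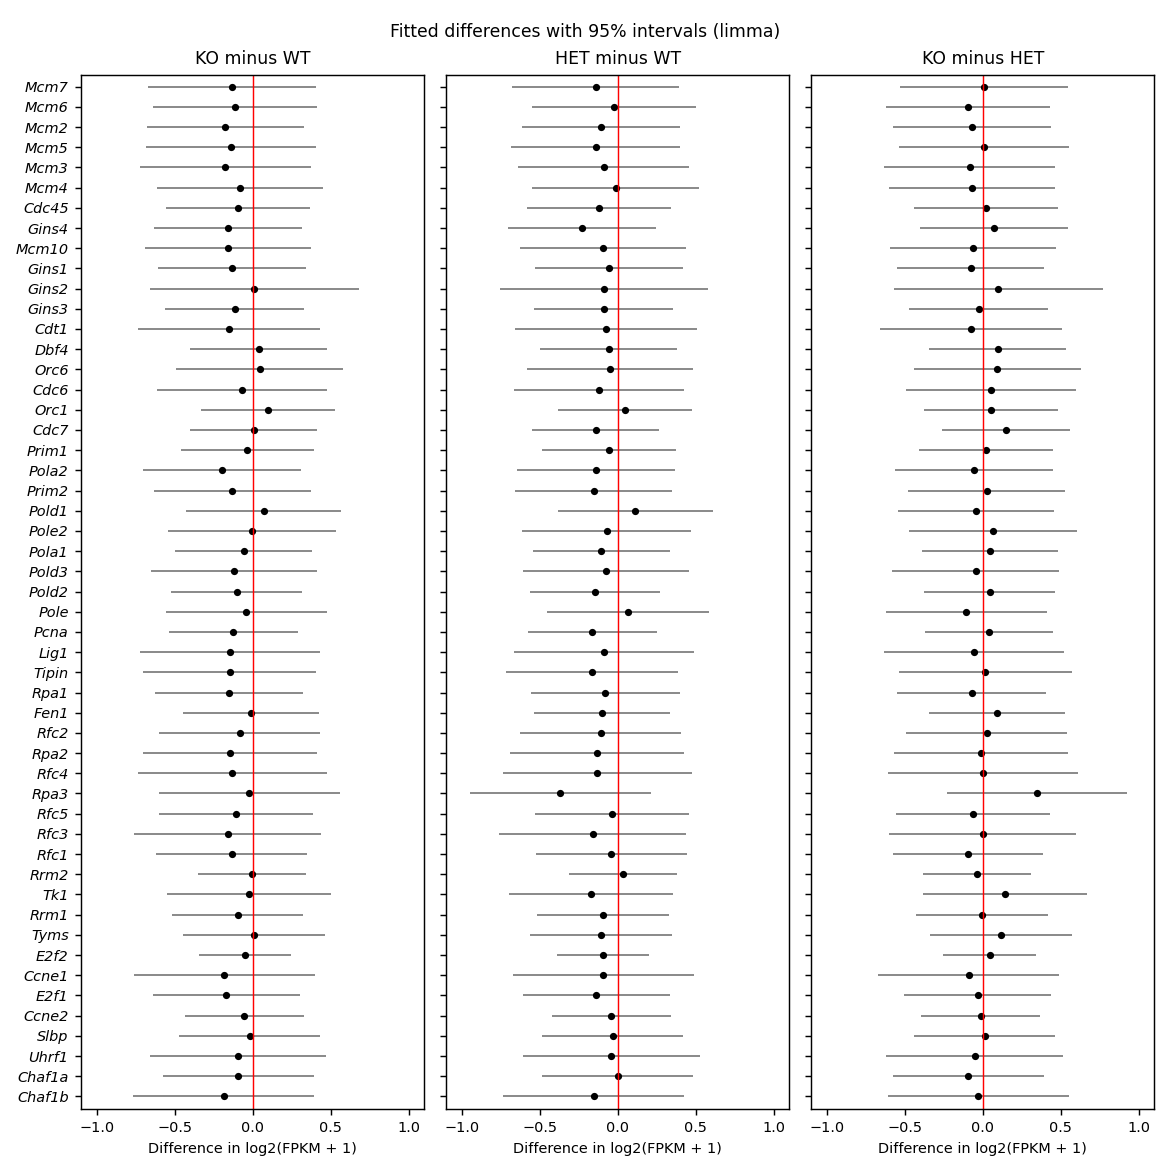
Fitted difference in log2(FPKM + 1) for each of the 51 members (rows) with its 95% interval from limma, for KO minus WT, HET minus WT and KO minus HET. Every interval spans 0 and lies within a 2-fold change (-1 to 1), and Rpa3 lies farthest from 0 in both HET minus WT (-0.37) and KO minus HET (0.35).

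The members differed between single libraries more than between genotypes. WT replicate 3 was the highest of the 9 libraries for 48 of 51 members, against 31.1% of the tested genes. The exceptions were Ccne2 and E2f2, highest in KO replicate 1, and Dbf4, highest in KO replicate 3. The level in WT replicate 3 over the median of the other 8 libraries was 1.55 for the median member, with a range of 1.1 for E2f2 to 1.88 for Gins2, against 1.05 over all tested genes. It exceeded 1.3 for 43 of 51 members, and for 19.4% of the tested genes. Rpa2 (1.84), Chaf1b (1.82), Cdt1 (1.77) and Rfc3 (1.77) followed Gins2, whose reads may be mixed with those of Gse1. Ccne2 (1.12), Rrm2 (1.16) and Orc1 (1.26) lay at the low end with E2f2. At the other extreme, 35 members were lowest in WT replicate 1 and 14 in KO replicate 2, which together make 49 of 51, against 38.3% of the tested genes. This was not particular to the members. WT replicate 1 or KO replicate 2 was also lowest for 41 of 50 other replication genes and 19 of 22 mitosis genes, lists described below. Pold2 and Rpa3 were lowest in HET replicate 2. These ranks are descriptions, with no test.

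On the log2(FPKM + 1) scale the median member deviated from its own 9-library mean by 0.12, -0.25 and 0.03 in KO replicates 1 to 3, by -0.0013, -0.0093 and -0.08 in HET and by -0.33, -0.02 and 0.57 in WT libraries. All 51 members lay above their own mean in WT replicate 3, 49 did so in KO replicate 1, 1 in WT replicate 1 and 0 in KO replicate 2. Scaling by total reads left WT replicate 3 at 0.52 and WT replicate 1 at -0.39. The median coefficient of variation of the members was 13.8% within KO, 7.48% within HET and 32.7% within WT libraries, against 17.5%, 11.3% and 20.6% for all tested genes in the same order. Over all 9 libraries it was 21% for the members and 17.2% for all tested genes, and without WT replicate 3 it was 12.4% and 15.4%.

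**Figure D3:**
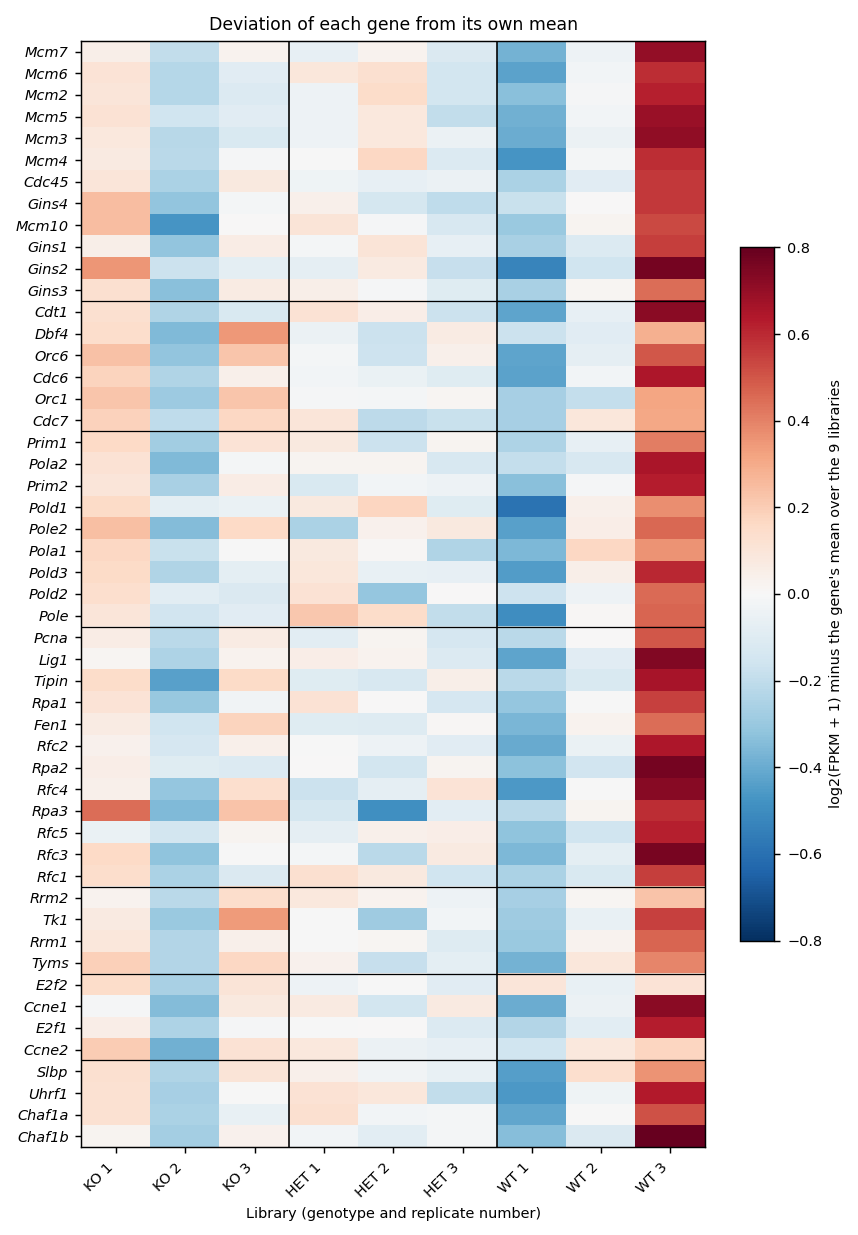
Difference between each member's log2(FPKM + 1) and its own mean over the 9 libraries (colour, red above and blue below the mean), with members in rows by role and the KO, HET and WT libraries in columns. The WT 3 column is red for all 51 members, the KO 2 column is blue for all 51, and the WT 1 column is blue for 50.

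By depth the libraries fell into 2 sets. WT replicates 1 and 2, HET replicate 2 and KO replicate 2 were the 4 shallower libraries, with 9.66 M reads or fewer, and the other 5 had 13.05 M or more. Among the shallower libraries the median member difference was -0.08 for KO minus WT, 0.15 for HET minus WT and -0.24 for KO minus HET. Among the deeper libraries it was -0.50, -0.60 and 0.12 for the same differences, and there WT replicate 3 was the only WT library. HET minus WT and KO minus HET thus had opposite signs in the 2 depth sets. The summed erythroid markers also split by depth, at 23810 to 26760 FPKM in the shallower and 14280 to 18130 FPKM in the deeper libraries. Hbb-bs, Alas2 and Hba-a1, which weigh heavily in the sums, split in this way, but the list as a whole did not. Its mean log2(FPKM + 1) was 9.95 in the shallower KO replicate 2 and 10.05 in the deeper KO replicate 3. Tfrc had 351.5 FPKM in KO replicate 2 and 596 FPKM in KO replicate 3, and Slc4a1 did not split by depth. The genotypes were not evenly spread over the 2 sets, so for the summed markers depth and genotype cannot be fully told apart. No test was run within a set.

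For most of the pairs compared, which were chosen after values were seen, the ratio in a library varied less than the level of either gene. The members as a whole shifted together between libraries, with all 51 above their own mean in WT replicate 3 and 0 in KO replicate 2. Members paired at random were not compared, so the steadier ratios cannot be assigned to partnership. Mcm2 over Mcm6 was 0.984, 0.992 and 0.984 in KO, 0.908, 1.01 and 0.994 in HET and 1.06, 1.01 and 1.02 in WT libraries. The ratio varied by 4.12% (coefficient of variation), while the level of Mcm2 varied by 21.7% and that of Mcm6 by 21.3%. Mcm4 over Mcm6 stayed between 0.498 and 0.562 and Mcm3 over Mcm5 between 0.754 and 0.877. Cdc6 over Cdt1 lay between 0.665 and 0.819, and Dbf4 over Cdc7 between 3.58 and 4.87. E2f1 over E2f2 varied by 17.3%, more than E2f2 itself (8.69%), and Ccne2 over Ccne1 by 14.9%, more than Ccne2 itself (12.6%). E2f1 over E2f2 was 0.136, 0.146 and 0.135 in KO, 0.15, 0.146 and 0.144 in HET and 0.116, 0.143 and 0.21 in WT libraries, lowest in WT replicate 1 and highest in WT replicate 3. Ccne2 over Ccne1 was 0.351, 0.293 and 0.311 in KO, 0.305, 0.326 and 0.275 in HET and 0.356, 0.332 and 0.207 in WT libraries, with WT replicate 3 the lowest. Rrm2 over Rrm1 was likewise lowest in WT replicate 3, at 2.08, against 2.34 to 2.63 in the other 8 libraries, but varied by 6.73%, less than either gene.

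Other replication genes, 51 in a list that does not overlap the members, gave 50 tested genes, of which limma called 0 in each comparison. Their median KO minus WT difference was -0.05, with 37 of 50 below 0. The most abundant were E2f4, Ccna2 and Asf1b. E2f4, an E2F repressor needed for red cell formation in mice, averaged 359.7 ± 67.9 FPKM in KO, 361 ± 2.45 FPKM in HET and 370.5 ± 52.5 FPKM in WT libraries (SD, n = 3 each). Ccna2, the S phase cyclin, averaged 346 ± 58.2 FPKM in KO, 334 ± 6.62 FPKM in HET and 358 ± 62.3 FPKM in WT libraries. Asf1b, a histone chaperone, averaged 188 ± 39.3 FPKM in KO, 172.5 ± 10.8 FPKM in HET and 184 ± 35.0 FPKM in WT libraries. None of the 3 differed between genotypes by more than the spread within KO or WT. WT replicate 3 was the highest library for 40 of the 50, with a median ratio of 1.35 to the other 8 libraries. The 22 mitosis genes, with Ube2c the most abundant, had a median ratio of 1.31 there, were highest in WT replicate 3 for 13 genes and in KO replicate 3 for 8, and had a median KO minus WT difference of 0.01, with 0 called.

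Markers of other blood cells also differed between libraries. WT replicate 3 was the lowest library for 9 of 9 B cell, 9 of 9 T and NK cell and 10 of 10 macrophage genes of the table. Of these, 1 B cell gene and 2 T and NK cell genes were at 0 there. WT replicate 1 was the highest for 8 of the 9 B cell genes and KO replicate 2 for 9 of the 10 macrophage genes, and these were the libraries in which most members were lowest. Not all libraries paired in this way. HET replicate 2 had a median B cell deviation of 0.75, above the 0.60 of KO replicate 2, with the members at -0.0093. WT replicate 2 had median deviations of 0.73 for T and NK cell and 0.99 for neutrophil genes, with the members at -0.02. The most abundant marker was Cd74 among B cell, Gzma among T and NK cell, Lyz2 among macrophage and S100a9 among neutrophil genes. Summed B cell markers were at 324 to 823.5 FPKM in KO, 592 to 779 FPKM in HET and 82.9 to 1314 FPKM in WT libraries. Summed macrophage markers were at 428 to 1447 FPKM in KO, 709 to 906 FPKM in HET and 139 to 1382 FPKM in WT libraries. Summed T and NK cell markers were at 71.0 to 123 FPKM in KO, 64.3 to 106 FPKM in HET and 9.12 to 179.5 FPKM in WT libraries, and summed neutrophil markers at 432 to 1532 FPKM in KO, 285 to 801 FPKM in HET and 336 to 1650 FPKM in WT libraries. HET replicate 1 was the lowest library for 7 of the 10 neutrophil genes and WT replicate 3 for 3. The 7 megakaryocyte markers of the table summed to 39.7 to 62.0 FPKM in KO, 44.4 to 46.9 FPKM in HET and 42.3 to 48.0 FPKM in WT libraries, with 48.0 FPKM in WT replicate 3. No gene of these 5 lists was at 0 in all libraries. Their part in the differences between libraries was not tested.

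**Figure D4:**
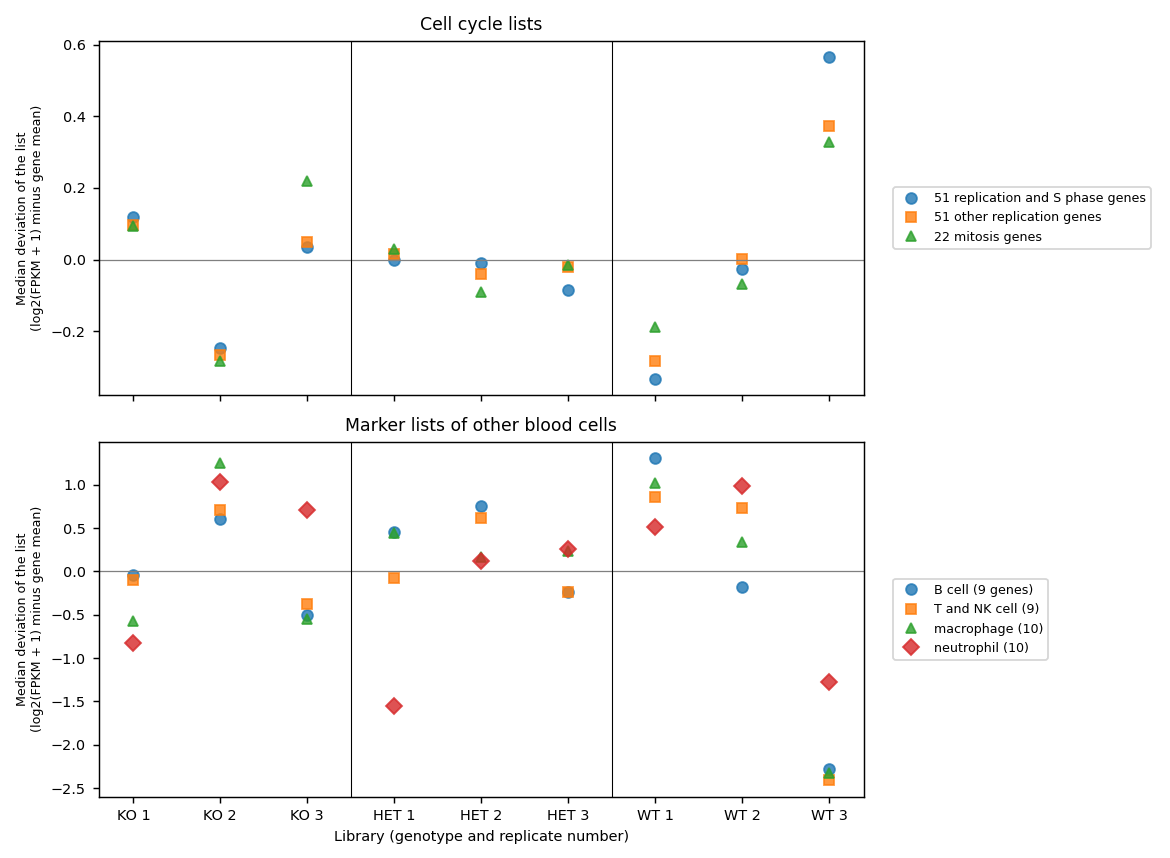
Median deviation of each list from its genes' own means, in log2(FPKM + 1), for the KO, HET and WT libraries. Upper panel, the 51 members, 51 other replication genes and 22 mitosis genes, which are highest in WT 3 (members 0.57). Lower panel, markers of 4 other blood cell types, which are below 0 in WT 3, where the members are highest. They are above 0 in KO 2 and WT 1, and also in HET 2, where the members are at -0.0093.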

How the data were processed

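RNA from sorted spleen erythroblasts of 9 libraries was measured as FPKM per gene in the deposited table. Per the submitters' processing notes, mm10, TopHat, DESeq2 and Picard were used; no version or role is stated, and for annotation, gene lengths and strand nothing is given in the sources used here. From the deposited FPKM, whole reads were recovered for all 14147 rows with reads in at least 2 libraries (100% of their values whole within 0.05 reads). For rows above 0 in few libraries some divisor nearly always gives whole numbers, so the 100% does not check those rows. Of the rows, 11276 were above 0 in every library, all 51 members included. The recovered reads total 7.05 M to 14.2 M per library. The 9543 of 20368 genes that reached 1 FPKM in 3 or more libraries were tested on log2(FPKM + 1) with limma 3.58.1 (R 4.3.3; all 9 libraries, mean-variance trend) and Benjamini-Hochberg adjustment at 0.05. Fold changes on this scale understate changes of low genes.

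Members and lists were chosen with earlier results of these data known. Values in every library are given for the 2 most abundant members of each role and the 3 of lowest unadjusted p in each comparison; Ccne2 and the ratio pairs were chosen after values were seen. Alternatives covered scaling, pseudocount, filters, voom on recovered reads, a replicate block and leaving out libraries. Same-numbered KO and HET libraries deviated together weakly (r = 0.20, 0.18 and 0.41), while KO and WT (-0.57, 0.51 and 0.33) and HET and WT (0.13, 0.18 and 0) did not all do so. Differently numbered libraries were not compared in this way and the labels name no batch, so a pairing is not established. The main fit used no block. All 36 library pairs differed by more than counting noise, the closest with a chi-square of 8.71 per degree of freedom. Promoter sequences are from RefSeq (GRCm38.p6), and exon overlaps from GENCODE M21. The test was checked on simulated data.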

Additional observations from a re-analysis of the deposited data

How the results depend on the processing

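The count of members called and of all genes called stayed at 0 in each comparison under every alternative run: quantile normalization, scaling by total reads, a pseudocount of 0.1, no filter (14934 genes), at least 5 FPKM (6490 genes), voom, the replicate block, only the libraries of the 2 groups, and leaving out each library. With the replicate block the median member difference was -0.10 for KO minus WT, -0.09 for HET minus WT and -0.0015 for KO minus HET, and the block changed no call. Leaving out each library gave medians of -0.29 to 0.15 for KO minus WT, -0.30 to 0.15 for HET minus WT and -0.07 to 0.10 for KO minus HET. Without both WT replicate 3 and KO replicate 2, chosen after seeing the data, the KO minus WT median was 0.25 with 0 of 51 members below 0. The median over all tested genes was 0.04. Still 0 members and 0 genes were called (limma, lowest adjusted p 0.088 for a member and 0.0598 for any gene). An unadjusted p below 0.05 was reached by 11 of 51 members and 2097 of 9543 genes. In the same fit it was reached by 5 members and 1552 genes for KO minus HET, and by 2 members and 714 genes for HET minus WT, with 0 called. With 3 libraries per genotype, the 95% intervals of the members reach -0.95 (HET minus WT) and 0.93 (KO minus HET) on the log2 scale at the outermost.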
